A study of Mus musculus with 24 samples.

Results

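The 10 apolipoprotein genes Apoa1, Apoa2, Apoa4, Apoa5, Apob, Apoc1, Apoc3, Apoe, Apoh and Apom were followed through liver, testes and cerebellum of mice that lack Thumpd1. They were picked by gene symbol from a table of 55450 genes, and each symbol matched 1 row. Thumpd1 encodes the tRNA-binding adaptor of the acetyltransferase Nat10, and together they place N4-acetylcytidine on tRNAs for serine and leucine. The wild-type (WT) group and the knockout (KO) group held 4 libraries each in every tissue, 24 in all, with WT replicates numbered 1 to 4 and KO replicates 5 to 8. C57BL/6N eggs were injected with Cas9 and guides to exons 1 and 4 of Thumpd1 to make heterozygous mice, and the KO (Thumpd1-/-) animals were bred from this line, so the deletion is inherited and not restricted to a tissue. By the labels and methods the study's animals were 6 to 12 weeks old, of either sex, with age-matched littermates as controls unless stated otherwise. Summed over Uty, Kdm5d, Ddx3y and Eif2s3y, transcripts of the Y chromosome read at least 56.7 CPM in each of the 24 libraries, so each held RNA from a male. Nothing says which liver, testes and cerebellum libraries came from the same animal, or how many founder lines were used, and p-values measure only the spread between these libraries.

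Apolipoproteins are the protein coats of plasma lipoproteins. Apob is the large structural protein of very low density lipoprotein (VLDL) and of chylomicrons, and Apoa1 is the main protein of high density lipoprotein (HDL). The small exchangeable proteins move between particles and steer the enzymes and receptors that act on them. The liver makes most of these proteins. Apoe is also made outside the liver, by astrocytes in the brain and by macrophages in many tissues.

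The upstream sequences of 4 members are shown because Apoa1 changed in liver, Apoa5 lies in the same cluster on chromosome 9 and did not pass the test, and Apoh and Apoe changed in opposite directions in testes. They are RefSeq windows of build GRCm38.p6, 5′ to 3′ on the gene's strand, cut where an annotated GENCODE exon of the gene begins. Capitals mark matches to the searched letters.
Apoa1, chr9:46228380-46228579, plus strand: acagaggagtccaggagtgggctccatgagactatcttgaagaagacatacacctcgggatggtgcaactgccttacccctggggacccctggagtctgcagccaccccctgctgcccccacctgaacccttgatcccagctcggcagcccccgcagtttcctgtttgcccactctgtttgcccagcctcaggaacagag
Apoa5, chr9:46268383-46268632, plus strand: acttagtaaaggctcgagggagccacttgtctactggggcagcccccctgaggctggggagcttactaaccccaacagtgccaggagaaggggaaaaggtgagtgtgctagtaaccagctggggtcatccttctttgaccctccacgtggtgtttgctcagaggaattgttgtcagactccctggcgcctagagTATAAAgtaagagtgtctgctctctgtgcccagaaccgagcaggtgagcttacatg
Apoh, chr11:108395047-108395292, plus strand: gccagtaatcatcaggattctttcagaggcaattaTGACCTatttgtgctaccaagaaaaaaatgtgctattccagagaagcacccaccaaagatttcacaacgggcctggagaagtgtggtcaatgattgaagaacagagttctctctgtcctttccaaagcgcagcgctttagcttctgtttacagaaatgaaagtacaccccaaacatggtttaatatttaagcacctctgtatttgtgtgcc
Apoe, chr7:19699189-19699438, minus strand: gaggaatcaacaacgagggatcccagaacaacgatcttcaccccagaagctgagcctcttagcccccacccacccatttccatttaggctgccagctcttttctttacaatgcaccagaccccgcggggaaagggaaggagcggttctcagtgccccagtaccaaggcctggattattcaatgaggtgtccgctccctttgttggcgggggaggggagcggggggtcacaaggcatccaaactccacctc
Windows of 300 bases, 250 before to 50 after the start, were found for 8 of the 10 members and searched on both strands for 4 runs of letters, none of which contains another, and 3 are reported here. These are TATAAA, the letters of a TATA box, CAAAGTCCA, those of an HNF4 site, and AGGTCA, those of the core element of nuclear receptors. A match to the letters does not show a site. TATAAA was found for Apoa2, Apoa5 and Apob, 3 of 8, at -212, -56 and -60 from the start, and in 13.6% of all 32851 RefSeq windows. AGGTCA was found for Apoh alone, on the other strand from the gene, and in 16.3% of all windows. CAAAGTCCA, held by 0.475% of all windows, was found for none of the 8. The Apoh window lies 51943 bases inside the GENCODE gene, which opens with a far upstream exon, and counts per gene do not separate the starts.

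Total counts lay between 16353797 and 37889615 per library. Thumpd1 was at 9.19 to 10.1 CPM (counts-per-million of a library's total) in WT liver and at most 0.106 CPM in KO liver. It was at 24.3 to 26.3 against 0.768 to 1.14 CPM in testes, and at 21.8 to 24.02 against at most 0.113 CPM in cerebellum. The 10 hepatocyte marker genes summed to at least 41873 CPM in liver, and the 8 spermatid markers to at least 6957 CPM in testes. The 7 granule cell markers summed to at least 3849 CPM in cerebellum, so each tissue carried the markers of its label. In liver, 6 abundant noncoding RNAs took 17.5% to 31.0% of counts, with the highest share in WT replicate 4.

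In WT mice all 10 genes were highest in liver, where their means ran from 61.5 CPM for Apoa4 to 13368 CPM for Apoe. Compared per kilobase of annotated exon, Apoe, which binds lipoprotein receptors, stood first at 6252 ± 728 CPM per kb (SD, n = 4), the 8th highest of all genes. Apoa2, the second protein of HDL, followed at 4996 ± 824 and Apoa1 at 3663 ± 269 CPM per kb. The library ranges of Apoe and Apoa2 overlapped, as did those of Apoa2 and Apoa1.

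Apoc1, an inhibitor of lipoprotein uptake and lipid transfer, was at 1355 ± 264 CPM per kb, apart from both neighbours in this order. Apoc3, an inhibitor of lipoprotein lipase, was at 877 ± 63.4 CPM per kb and overlapped no neighbour either. Apob was at 660 ± 94.3, Apoh at 539 ± 57.5 and Apoa5 at 486 ± 92.5 CPM per kb, and each of these ranges overlapped the next. Apoh is also called beta-2-glycoprotein I and binds phospholipids, and Apoa5 promotes triglyceride clearance. Apom, the carrier of sphingosine-1-phosphate in HDL, was at 119 ± 9.99 CPM per kb. Apoa4, which in mice is made mainly by the intestine, was last at 33.9 ± 4.86 CPM per kb. With the length of the transcript that has the longest coding sequence, Apob and Apoh traded places and the rest of the order held. Apoe then stood at 12108 ± 1410 and Apoa2 at 5179 ± 855 CPM per kb, and their library ranges no longer overlapped.

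Outside liver only 3 members passed the filter of at least 1 CPM in at least 4 of the 8 libraries of a tissue. Apoe was at 412 ± 15.5 CPM in WT cerebellum and 60.2 ± 6.46 CPM in WT testes (SD, n = 4). The fit over the 12 WT libraries, limma-voom with TMM factors, put Apoe in testes below cerebellum by 2.52 ± 0.16 on the log2 scale (SE, adjusted p = 1.15e-08), a contrast in which 90.3% of 21697 genes differed. Apoh was at 25.6 ± 1.03 CPM and Apoc1 at 7.94 ± 0.523 CPM in WT testes. Their log2 differences from WT liver were -6.01 ± 0.12 and -7.92 ± 0.29, against -8.74 ± 0.14 for Apoe in the same tissues, and 90.6% of genes differed there. The TMM factors enlarge these differences from liver over those of the plain CPM values, but narrow that of Apoe between testes and cerebellum. With library sizes only the differences from liver were -5.07 for Apoh, -6.97 for Apoc1 and -7.79 for Apoe. Apoe in testes then lay 2.78 below cerebellum.

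The other members left traces. Apoa4 had 0 counts in all 16 testes and cerebellum libraries. Against a floor of 3 counts per library, its pooled liver level was at least 613-fold higher than in testes and at least 388-fold higher than in cerebellum. Apoa5 had 3 counts over the 8 testes libraries and 1 over the 8 cerebellum libraries, and Apoc3 had 3 and 10. Apoa1 had 20 and 22, Apob 64 and 4, and Apom 55 and 11. In cerebellum Apoh had 14 counts and Apoc1 60 over the 8 libraries. Apoa2 was counted in every testes and cerebellum library, 122 and 52 counts in all, which is 0.488 CPM (95% Poisson interval 0.405 to 0.582) and 0.328 CPM (0.245 to 0.431). The intervals cover counting error only. Alb, the albumin gene that marks hepatocytes, was at most 0.352 CPM in these libraries.

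**Figure D1:**
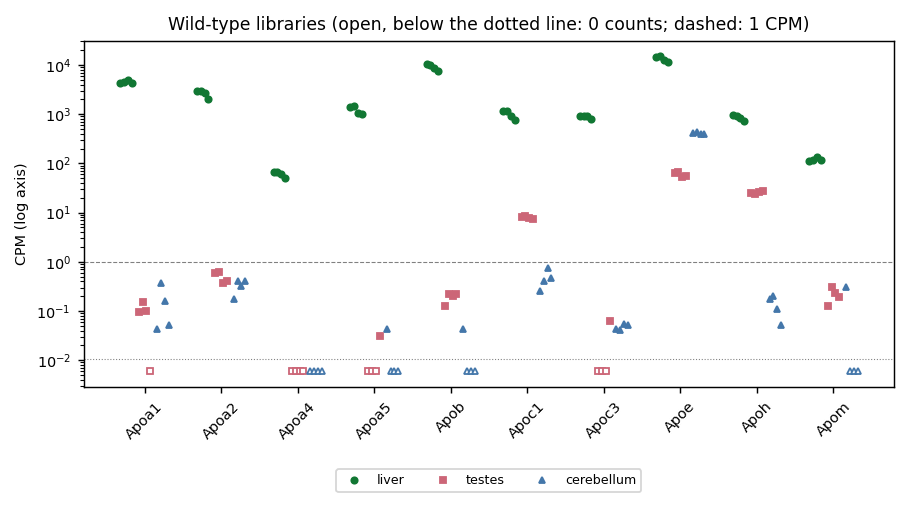
CPM on a log axis for each member (x axis) in the 4 WT libraries of liver (circles), testes (squares) and cerebellum (triangles), with open symbols below the dotted line for 0 counts and a dashed line at 1 CPM. All liver points lie at or above 49.5 CPM, and only Apoe, Apoh and Apoc1 have points above 1 CPM in another tissue.

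In liver, Apoa1 was the only member called at an adjusted p under 0.05 in limma-voom with quantile normalization, and it was higher in KO. That is 1 of 10 members beside 5.91% of all 12816 genes tested, 2.79% called higher and 3.12% lower. The members' median log2 change was 0.06 against -0.0031 over all genes, and 5 of 10 changes were positive. In no member were the WT and KO libraries apart, where 12.7% of all genes had no overlap. In bulk tissue, fewer cells of a type and less RNA per cell cannot be told apart.

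Apoa1 read 4370.4, 4417, 5021 and 4302 CPM in WT replicates 1 to 4 and 4770.3, 4769.6, 6351 and 6322 CPM in KO replicates 5 to 8. KO replicates 7 and 8 stood above every WT library, while KO replicates 5 and 6 lay below WT replicate 3. The log2 change was 0.32 ± 0.07 (SE, adjusted p = 0.0303), or 1.25-fold. The call was lost without WT replicate 1 (adjusted p = 0.109), WT replicate 2 (0.114), KO replicate 7 (0.0598) or KO replicate 8 (0.0689). It was also lost with TMM factors (0.124), and without WT replicate 4, whose noncoding share stood out, it held (0.0334).

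The other HDL proteins did not pass the threshold. Apoa2 read 2987, 2979, 2719.8 and 2045 CPM in WT and 2293, 2238, 3082 and 3379 CPM in KO. The KO libraries lay on both sides of the WT mean, and the log2 change was -0.0021 ± 0.10 (adjusted p = 0.993). Apom read 114, 116, 136 and 117 CPM in WT and 126, 133, 162 and 155 CPM in KO. WT replicate 3 fell among the KO libraries, and the log2 change was 0.27 ± 0.09 (adjusted p = 0.110). Apom passed the threshold with sample quality weights (log2 change 0.38, adjusted p = 0.0172).

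For the VLDL protein Apob the WT libraries read 10491, 10011, 8727 and 7579 CPM and the KO libraries 8567, 8860.5, 10411 and 11462 CPM. The groups overlapped over most of their range, with a log2 change of 0.24 ± 0.11 (adjusted p = 0.236). The Apob value was 0.099 with TMM factors, 0.10 with edgeR, 0.11 with DESeq2 and 0.091 with library sizes only (adjusted p = 0.503 to 0.764), and it passed the threshold only in the fit over 24 libraries (0.24, adjusted p = 0.0490). In the quantile fit the lipase regulators Apoa5 and Apoc3 had smaller estimated changes than Apob. Apoa5 was above Apob with TMM factors (0.13), edgeR (0.12), DESeq2 (0.13) and library sizes only (0.12). Apoa5 read 1419, 1435, 1064 and 988 CPM in WT and 1182, 1187, 1526 and 1405 CPM in KO, with a log2 change of 0.13 ± 0.09 (adjusted p = 0.425). Apoc3 had the tightest libraries, 932, 925, 905 and 794 CPM in WT and 863, 903, 832 and 817 CPM in KO, with a log2 change of -0.05 ± 0.08 (adjusted p = 0.749). Its 95% interval, -0.23 to 0.12, bounds a change in either direction.

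Apoh read 942, 915, 845 and 737 CPM in WT and 897, 899, 1095 and 1143 CPM in KO. KO replicates 7 and 8 exceeded all WT libraries, and the log2 change was 0.24 ± 0.07 (adjusted p = 0.0611). It passed the threshold without KO replicate 6 (adjusted p = 0.0456), with DESeq2 (0.0246), with no filter (0.0489) and with sample quality weights (0.0223). Apoe read 14419, 14874, 12649 and 11529 CPM in WT and 10984, 10927, 14052 and 13351 CPM in KO. The groups interleaved, and the log2 change was -0.07 ± 0.17 (adjusted p = 0.861), the widest interval of the 10 members, from -0.45 to 0.32. Apoc1 read 1148, 1184, 938 and 762 CPM in WT and 795, 746, 1079 and 1188 CPM in KO (log2 change -0.07 ± 0.13, adjusted p = 0.798). Apoa4 read 68.0, 68.2, 60.3 and 49.5 CPM in WT and 61.8, 65.2, 51.5 and 49.3 CPM in KO (log2 change -0.09 ± 0.11, adjusted p = 0.662).

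**Figure D2:**
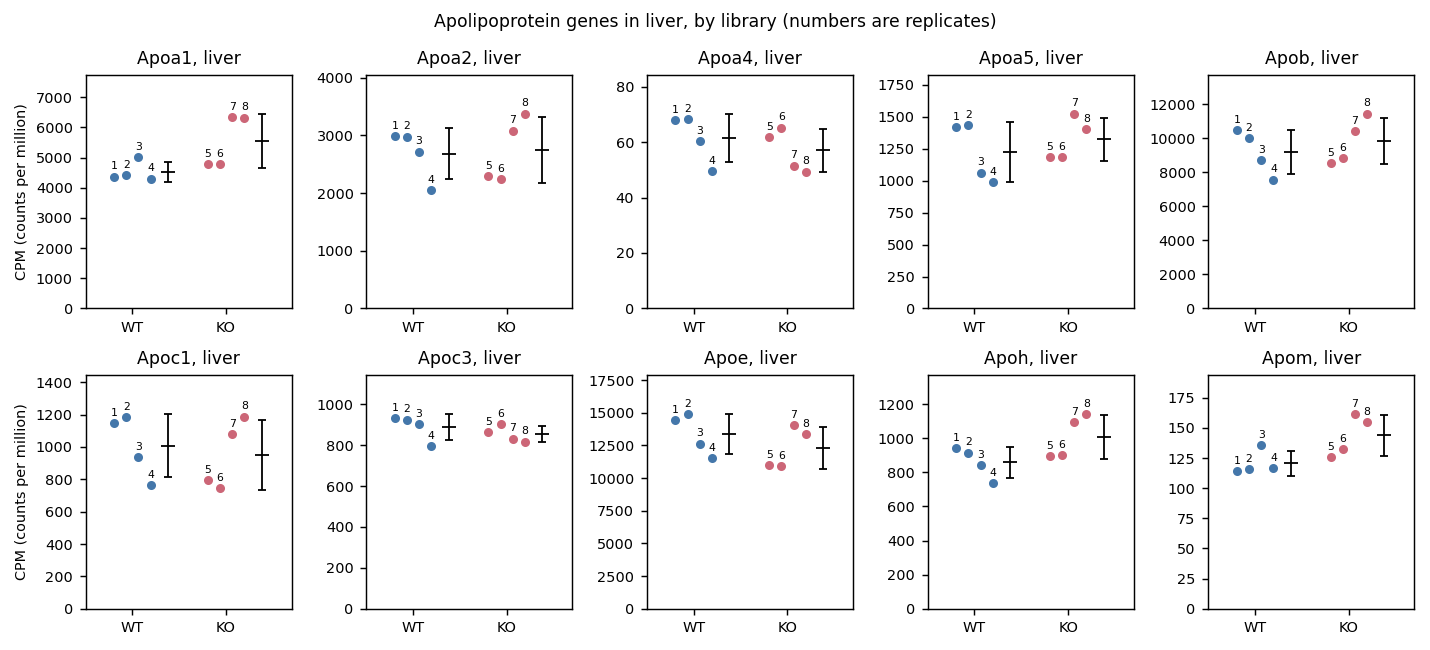
CPM (y axis from 0) of the 10 members in the 8 liver libraries, labelled by replicate number, with the mean and SD of each group (n = 4) beside the points. WT and KO ranges overlap in all 10 panels, and KO replicates 7 and 8 sit above 5 and 6 in 8 panels.

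Within 1 genotype the order of the libraries was alike for most members. The share of all genes with the same order was not counted. KO replicates 7 and 8 were both above 5 and 6 for 8 members, with Apoa4 and Apoc3 the other way round. WT replicate 4 was the lowest WT library for 9 members. Alb, which is not a member, had the same order. It read 54869 and 60328 CPM in KO replicates 7 and 8, 40098 and 41293 CPM in 5 and 6, and was lowest in WT replicate 4. Together the 10 genes made up 28903 to 36923 CPM in WT and 30539.6 to 39272 CPM in KO. In KO the share of the 6 noncoding RNAs ran against this sum. It was 18.8% and 17.5% in KO replicates 7 and 8 and 27.2% and 26.4% in 5 and 6.

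With those 6 RNAs left out of the totals, the WT spread of Apoe narrowed from a coefficient of variation of 11.6% to 5.02% and that of Apoh from 10.7% to 3.02%. That of Apoa1 widened from 7.34% to 10.2%. On that scale Apoh read 1067 to 1141 CPM in WT and 1220.5 to 1385 CPM in KO, the 1 member of 10 whose groups did not overlap, beside 16.4% of all genes. In the fit without these RNAs, with TMM factors, Apoh had an adjusted p of 0.0888 and Apoa1 of 0.122. The part of the noncoding RNAs in the differences was not tested further.

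The proportions of Apoa1 and its neighbours on chromosome 9 were compared within libraries. Apoa1 (46228580 to 46230466), Apoc3 (46232933 to 46235636), Apoa4 (46240696 to 46243459) and Apoa5 (46268633 to 46271919) lie in this order in the mm10 build. Apoc3 had 0.197 ± 0.0169 counts per Apoa1 count in WT liver and 0.158 ± 0.032 in KO liver (SD, n = 4). The ranges, 0.180 to 0.213 and 0.129 to 0.189, overlapped. Apoa4 shares 1266 exon bases with Gm47528 and Gm10680 on the other strand and Apoa5 shares 524 with Gm47544. The strand setting of the counting was not given in the sources used here, so values of those members are uncertain to that extent.

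Over the 8 liver libraries, the gene outside the set whose centred log2 CPM lay nearest to Apoa1 was F11, coagulation factor XI, at a root mean square difference of 0.0419, followed by Cyp2c50 and Dnmbp. Apom was its nearest fellow member, 4th among 7414 genes, at 0.0527. Apoa2 lay nearest to Fga, Serpina1b and Serpina1a, which encode a fibrinogen chain and protease inhibitors of plasma. Over all 24 libraries Apoe lay nearest to Cyp4v3, Cyp4f14 and Fah, and Apoa4, its nearest fellow member, came 1619th. Apoh lay nearest to Proc, Mgam and Ces1d. These are descriptions of libraries that share a tissue and a genotype.

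Genes that act on lipoproteins in liver held larger called changes, up to a log2 of 1.33. Among 14 tested plasma lipase genes and their regulators, 2 rose. Lpl, lipoprotein lipase, was at 14.7 ± 1.66 CPM in WT and rose to 36.7 ± 4.00 CPM in KO (SD, n = 4). Its log2 change was 1.33 ± 0.09 (limma adjusted p = 6.24e-05). Its inhibitor Angptl4 rose from 47.3 ± 7.67 to 103 ± 32.2 CPM (log2 change 1.12 ± 0.17, limma adjusted p = 0.00508).

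Of 20 tested receptor genes, Sdc4, a heparan sulfate proteoglycan, rose by 0.45 (limma adjusted p = 0.0489). Of 15 genes of HDL formation, Pltp, the phospholipid transfer protein, fell from 137 ± 17.8 to 69.5 ± 1.89 CPM (log2 change -0.96 ± 0.07, limma adjusted p = 6.24e-05). Pon1, paraoxonase carried on HDL, rose by 0.36 (adjusted p = 0.00793). Of 24 genes of VLDL assembly, Aadac and Plin2 rose, by 0.30 and 0.28. Mttp, the lipid loader of Apob, was not among the calls.

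Among 33 tested regulators of apolipoprotein genes, 3 rose and 2 fell. Srebf1, which drives fatty acid synthesis genes, fell from 387 ± 84.8 to 201 ± 10.7 CPM (log2 change -0.88 ± 0.09, limma adjusted p = 0.000582). Nr1d1, a clock repressor, fell by 0.95 (adjusted p = 0.00415). Creb3l3, a hepatic activator of triglyceride clearance genes, rose by 0.24 (adjusted p = 0.0181) and the coactivator Ppargc1a by 0.67 (adjusted p = 0.0425). Of 14 tested other apolipoproteins, Apoc4 rose from 492 ± 62.9 to 587 ± 31.5 CPM (log2 change 0.25 ± 0.06, limma adjusted p = 0.0321). Of 33 tested secreted liver proteins that are not apolipoproteins, the fibrinogen chains Fgg and Fgb rose, by 0.25 and 0.27, and 23 had a positive change. Of the 10 hepatocyte markers 1 rose and 1 fell, and of 9 stellate cell markers 1 rose and 2 fell. Kupffer cell markers summed to 266 to 337 CPM in WT and 302 to 339.6 CPM in KO. Their part in the change of Apoa1 was not tested.

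In testes, Apoh and Apoc1 fell and Apoe rose. These 3 were the members tested, and each was above 1 CPM in all 8 libraries. All 3 passed the threshold, beside 20.5% of all 19329 genes tested, 9.74% higher and 10.7% lower. All 3 had WT and KO libraries apart, beside 28.6% of all genes. With library sizes only and no further normalization, 67.6% of the called genes in testes were higher, against 47.6% in the quantile fit.

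Apoh read 25.4, 24.3, 25.8 and 26.8 CPM in WT and 20.7, 20.5, 17.1 and 18.0 CPM in KO. Every KO library lay below every WT library, and the log2 change was -0.53 ± 0.09 (SE, limma adjusted p = 0.00450), to 0.692 of the WT level. The call held when any single library was left out, with adjusted p from 0.00332 to 0.0226. It was lost only when neighbouring libraries were summed, which leaves 2 sums per group (0.155). The Apoh locus, chromosome 11 from 108343354 to 108414396, shares 30 exon bases with Prkca on the other strand.

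Apoe read 63.7, 67.5, 53.7 and 56.0 CPM in WT and 72.9, 76.0, 104 and 81.5 CPM in KO. Every KO library lay above every WT library, with replicate 7 highest, and the log2 change was 0.43 ± 0.11 (limma adjusted p = 0.0208), or 1.35-fold. The call was lost without WT replicate 3 (0.0708) or WT replicate 4 (0.0688), and in 1 fit over all 24 libraries (0.401). Apoc1 read 8.16, 8.53, 7.76 and 7.32 CPM in WT and 6.14, 6.38, 6.99 and 7.30 CPM in KO. The groups were separated by a narrow gap between KO replicate 8 and WT replicate 4. The log2 change was -0.36 ± 0.09 (limma adjusted p = 0.0190). It was lost without WT replicate 2 (0.0540) or WT replicate 3 (0.0569), with library sizes only (0.0841) and in the fit over 24 libraries (0.195).

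Apoe and Apoc1 are neighbours on the minus strand of chromosome 7, Apoc1 from 19689481 to 19692660 and Apoe from 19696109 to 19699188. Apoc1 had 0.132 ± 0.00817 counts per Apoe count in WT testes and 0.0812 ± 0.00975 in KO testes (SD, n = 4). The WT libraries ran from 0.126 to 0.144 and the KO libraries from 0.0671 to 0.0896. These ranges had to lie apart, because every KO library was above WT for Apoe and below WT for Apoc1. In liver the same ratio was 0.0749 ± 0.00639 in WT and 0.0766 ± 0.00895 in KO, and the ranges overlapped.

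**Figure D3:**
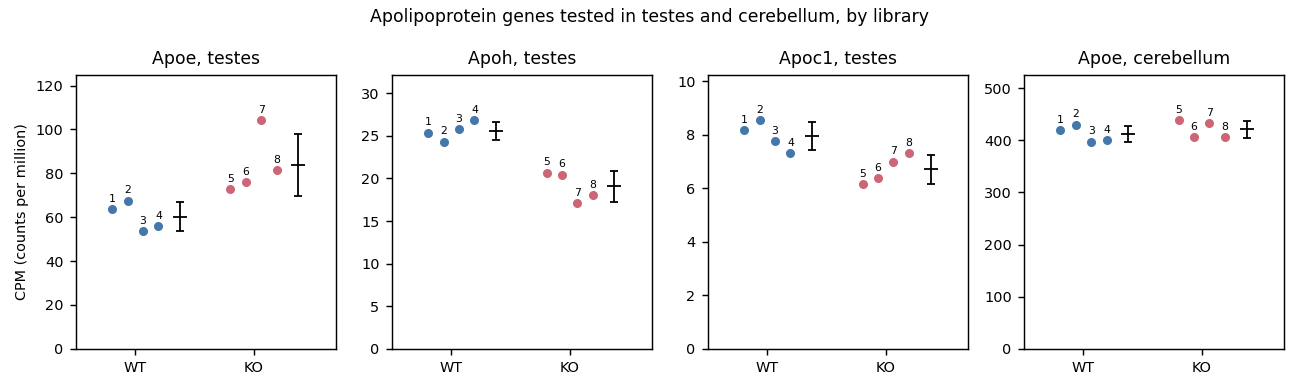
CPM (y axis from 0) of Apoe, Apoh and Apoc1 in the 8 testes libraries and of Apoe in the 8 cerebellum libraries, labelled by replicate number, with the mean and SD of each group (n = 4). In testes the KO points are all above WT for Apoe and all below for Apoh and Apoc1, while Apoe in cerebellum overlaps.

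Marker genes of testis cell types moved alongside. Of 10 Sertoli cell markers 8 rose, and their summed level went from 480 to 535 CPM in WT to 656 to 864 CPM in KO. Of 8 spermatid markers 4 fell, and their sum was 9723 to 10220 CPM in WT and 6957 to 9009 CPM in KO. Of 7 Leydig markers 2 rose and 3 had a positive change, with a median log2 change of -0.17. Their sums were 1048 to 1140 CPM in WT and 952 to 1578 CPM in KO. Of 9 testis macrophage markers 1 rose, with sums of 77.4 to 84.8 and 89.1 to 119 CPM. None of these markers was at 0 in testes. Their part in the changes of Apoe, Apoh and Apoc1 was not tested.

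In testes the receptor and HDL lists held more genes called higher than lower. Of 24 tested receptor genes 5 rose and 2 fell. Lrp8, the ApoE receptor 2 of sperm and neurons, rose from 125 ± 10.4 to 172 ± 18.7 CPM (log2 change 0.47 ± 0.09, limma adjusted p = 0.00671). Sdc4 rose by 0.38 and Scarb2 by 0.39, while Amn, a partner of cubilin, fell by 0.63 on the log2 scale. Of 12 tested HDL genes 3 rose. Abca1, the exporter that loads cholesterol on Apoa1 and Apoe, rose from 127 ± 2.21 to 169 ± 25.0 CPM (log2 change 0.42 ± 0.10, limma adjusted p = 0.0150). Abcg1, a second exporter, rose by 0.74 and Pcyox1 by 0.38.

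Of 5 tested other apolipoproteins 1 rose, Clu, which encodes clusterin or apolipoprotein J and is made by Sertoli cells. It went from 807 ± 63.4 to 1068 ± 204 CPM (log2 change 0.46 ± 0.12, limma adjusted p = 0.0236). Of 8 tested lipase genes only Angptl4 was called, higher by 0.62. Of 20 tested VLDL genes Plin2 and Dgat2 fell, by 0.28 and 0.15 on the log2 scale. Of 23 tested regulators Nr1h3, the oxysterol receptor LXR alpha that activates Abca1 and Apoe, fell by 0.55 on the log2 scale and Mlxipl rose by 0.58. Of 8 tested secreted liver proteins only Ambp was called, higher by 0.76.

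In cerebellum, Apoe was the only member tested and it was not called, beside 6.44% of all 16225 genes, 3.93% higher and 2.51% lower. It read 419, 430.1, 397 and 401 CPM in WT and 439, 407, 432 and 406 CPM in KO. The groups overlapped between 406 and 430.1 CPM, with WT replicates 3 and 4 below every KO library and KO replicates 5 and 7 above every WT library. The log2 change was 0.02 ± 0.04 (limma adjusted p = 0.781), with a 95% interval from -0.06 to 0.11. No other setting, edgeR and DESeq2 included, called it. Astrocyte and Bergmann glia markers, from the cells that make most brain Apoe, summed to 4254 to 4301 CPM in WT and 4373 to 4389 CPM in KO, with 2 of 12 called higher. Microglia markers summed to 92.3 to 109 and 109.6 to 118 CPM, with 11 of 11 changes positive. Granule cell markers summed to 4352 to 4398 CPM in WT and 3849 to 4110 CPM in KO, with 4 of 7 called lower. The choroid plexus marker sum ran from 18.1 to 1091 CPM in WT and 23.1 to 366 CPM in KO, while Apoe stayed within 397 to 439 CPM.

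The pathway lists gave few calls in cerebellum. Sort1 and Mcfd2 rose among 20 tested VLDL genes, by 0.15 and 0.19, and Lcat, which esterifies HDL cholesterol on Apoa1, rose by 0.20 among 11 HDL genes. Of 22 tested receptor genes only Sort1 was called. In the lipase and other apolipoprotein lists, 5 of 7 and 3 of 5 changes were positive without passing the threshold. At an adjusted p under 0.05 in limma, 3 of 22 tested regulators passed, with Tcf7l2 higher by 1.38 and Nr1d2 and Nr1d1 lower by 0.29 and 0.30. Of 5 tested secreted liver proteins, Vtn rose by 0.35 and Itih3 fell by 0.37 on the log2 scale.

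The knockout effect on Apoh differed between liver and testes. The effect in liver minus that in testes was 0.82 ± 0.12 on the log2 scale (limma-voom interaction with TMM factors over 16 libraries, adjusted p = 0.00105), beside 9.85% of 11611 genes. The test stayed past the threshold when any 1 of the 16 libraries was left out, with adjusted p from 0.000707 to 0.00469. For Apoe the difference was -0.44 ± 0.13 (adjusted p = 0.0362), and it missed the threshold with edgeR (0.0936) and with quantile normalization over the 16 libraries (0.341). The adjusted p was 0.0828 without testes WT replicate 3, 0.0818 without testes WT replicate 4 and 0.0749 without testes KO replicate 7. The call was also lost without liver WT replicate 1 (0.0556), liver WT replicate 2 (0.0706), liver KO replicate 5 (0.0565) or liver KO replicate 6 (0.0574). For Apoc1 the difference was 0.31 ± 0.23 (adjusted p = 0.397), so a fall particular to testes was not shown.

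Apoe in testes minus cerebellum gave 0.34 ± 0.10 (limma adjusted p = 0.0299), beside 19.5% of 13753 genes. This call was lost without testes WT replicate 3 (0.0758), testes WT replicate 4 (0.0703), testes KO replicate 7 (0.0524), cerebellum WT replicate 1 (0.0532), cerebellum WT replicate 2 (0.0549) or cerebellum KO replicate 8 (0.0579). Liver minus cerebellum gave -0.13 ± 0.08 for Apoe (adjusted p = 0.367), beside 8.45% of 11489 genes. The comparisons of 1 tissue with each of the others share that tissue's libraries.

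**Figure D4:**
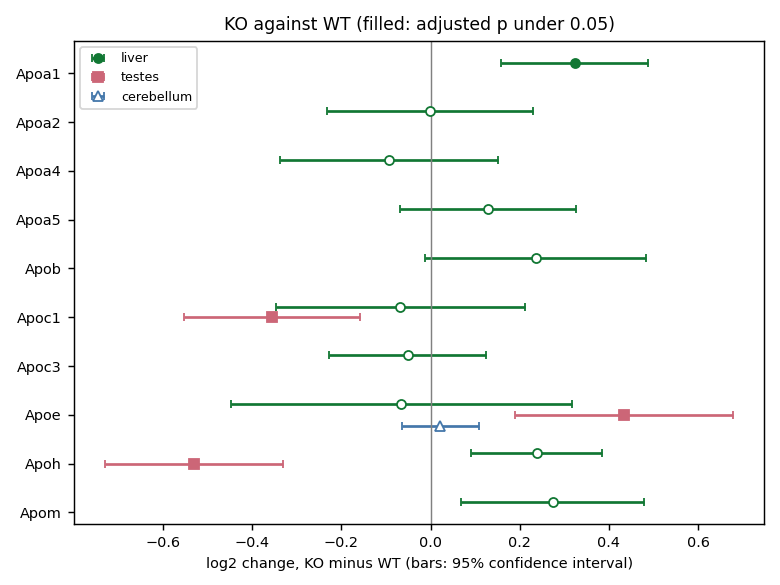
Log2 change, KO minus WT, of each member (rows) with its 95% confidence interval, in liver (circles), testes (squares) and cerebellum (triangle), filled where the adjusted p is under 0.05. Apoh lies at 0.24 in liver and -0.53 in testes, and Apoe at -0.07 in liver, 0.43 in testes and 0.02 in cerebellum.

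The coding sequences of the members differ in the codons that Thumpd1-dependent tRNAs read. Taken from GENCODE M21 with the longest complete coding sequence of each gene, the leucine codons UUA, UUG, CUA and CUU made up 7.95% of the 88 codons of Apoc1, with 95.1% of 21473 coding genes below it. The same codons made up 5.95% of the 4505 codons of Apob and 2.17% of the 368 codons of Apoa5, against a median of 4.05% over genes. Apoh was poor in leucine, 6.67% of its 345 codons against a median of 10.2%. Apoe was poor in serine, 2.89% of its 311 codons against a median of 7.89%, with 1.15% of genes below it. Apoa1, with 13.3% leucine, took 20% of its leucine codons from those 4 codons, against a median of 40.8%. RNA counts do not measure how these codons were translated.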

How the data were processed

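RNA from liver, testes and cerebellum was read as paired ends after removal of ribosomal RNA with a stranded kit. The authors aligned reads with STAR and deposited expected counts per gene from RSEM (mm10, GENCODE M21 per the methods). The strand setting of the counting and the versions were not given in the sources used here. Members were matched by symbol. The members and gene lists were chosen with earlier results of these data known. Named genes were all members, Thumpd1, up to 4 called genes of smallest p per list and tissue, and the genes of most similar pattern (log2 CPM, prior count 0.5, at least 10 CPM in WT liver).

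Genes with at least 1 CPM in at least 4 of 8 libraries were fitted per tissue with limma-voom (limma 3.58.1, R 4.3.3) after quantile normalization, with Benjamini-Hochberg adjustment over all genes and a threshold of 0.05. Differences between tissues and WT levels used TMM factors from edgeR 4.0.16. edgeR and DESeq2 1.42.0 served as alternatives on counts rounded to whole numbers. On simulated data with 200 genes changed by a log2 of 1, the liver fit over 12680 genes recovered 87%, the testes fit over 19138 genes 91% and the cerebellum fit over 16087 genes 94.5%. Changes as small as those of the members were not simulated, so these shares do not tell how many of those would be found. Lengths were unions of GENCODE exons. A few items that these rules pick are not reported here.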

Additional observations from a re-analysis of the deposited data

Results flagged for a closer look

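The knockout effect differed between tissues for Apoh and Apoe by a test of the difference itself. Apoh gave 0.82 on the log2 scale for liver minus testes. Apoe gave -0.44 for liver minus testes, a call lost with edgeR (adjusted p = 0.0936), with quantile normalization (adjusted p = 0.341) and in 7 of 16 fits that left out 1 library. It gave 0.34 for testes minus cerebellum, a call lost in 6 of 16 such fits.

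Of 28 groups of 4 libraries with a mean of at least 1 CPM, 2 held a library far from the other 3. WT replicate 3 was the highest WT liver library for Apoa1, at 5021 CPM, with a gap of 0.840 of the group's range. The same library was highest for Apom, at 136 CPM, with a gap of 0.876. Both gaps exceed Dixon's 95% critical value for 4 samples, and chance alone marks about 1 group in 20.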

How the results depend on the processing

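No paired analysis was possible because WT replicates are numbered 1 to 4 and KO replicates 5 to 8, so the groups share no number. The cause of the changes below was not tested.

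Among 238 values of a member's log2 change under another setting, 192 kept their direction and side of the threshold, 19 lost the threshold, 6 passed it and 21 changed sign. In liver the number of members called, 1 in the quantile fit, was 0 with TMM factors, edgeR, the noncoding RNAs left out, library sizes only or neighbouring libraries summed, 2 with DESeq2, no filter or 1 fit over 24 libraries, and 3 with quality weights. It was 0 to 2 when 1 library was left out. In testes the 3 calls became 1 in the fit over 24 libraries, 0 with neighbouring libraries summed, and 1 to 3 with 1 library left out. Library sizes only, for WT levels too, and the summing of neighbouring libraries were chosen after seeing the data.

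All genes called were 757 in liver, 3957 in testes and 1045 in cerebellum. Quality weights gave 1705, 6107 and 1757. The fit over 24 libraries gave 1685 in liver and 234 in cerebellum, neighbouring libraries summed 11, 2 and 47, DESeq2 1408 in liver, library sizes only 447 in liver, and no filter 681 in cerebellum. With 1 library left out the counts ran from 284 to 795 in liver, 1711 to 4913 in testes and 417 to 2317 in cerebellum. The lowest came without WT replicate 1 in liver, WT replicate 3 in testes and WT replicate 1 in cerebellum, and the highest count in cerebellum without KO replicate 6.

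Changes of sign concerned values near 0. Apoa2 in liver turned positive, at 0.028 with TMM factors, 0.044 with edgeR, 0.048 with DESeq2, 0.018 with no filter, 0.028 without the noncoding RNAs, 0.027 with quality weights, 0.011 in the fit over 24 libraries and 0.019 with library sizes only, and ran from -0.073 to 0.062 with 1 library left out. With 1 library left out, liver Apoe ran from -0.17 to 0.040, liver Apoc1 from -0.16 to 0.012, liver Apoc3 from -0.11 to 0.0019 and cerebellar Apoe from -0.00089 to 0.053.

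Depth limits Apoa4, Apoa5 and Apoc3 outside liver, where no library held more than 3 counts.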
